A study of Mus musculus with 4 samples.

Results

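Gas5 and the genes Snhg1, Snhg3, Snhg5, Snhg6, Snhg8 and Snhg12 are noncoding genes that carry small nucleolar RNAs (snoRNAs) in their introns. They were taken by symbol from the deposited expression tables, where each of the 7 symbols has 1 entry, out of 23284 gene symbols in all. RNA was measured in 4 libraries, 2 of CCR7loCD137hi cells and 2 of CCR7hiCD137lo cells. Both populations were sorted from CD4 T cells of BALB/c mouse spleen that had been cultured under Th1 conditions with 15 ng/ml IL-2 and 10 ng/ml IL-12, and the labels give 4 days of culture in one place and 5 days in another. CCR7 is the homing receptor for lymph nodes that naive and central memory T cells carry, and CD137, encoded by Tnfrsf9, is a costimulatory receptor that appears on activated T cells. The labels name no allele, knockout or drug, and set the populations apart by the sort. The series is titled for the enzyme Acc1, fatty acid synthesis and memory potential. Nothing in the labels says whether the libraries numbered 1 and 2 came from separate mice or cultures, so p-values here measure only the spread between these libraries, which may be technical.

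A snoRNA host gene is transcribed and spliced like a messenger RNA gene. Its introns, once cut out, are trimmed to snoRNAs, which guide the methylation (box C/D type) or pseudouridylation (box H/ACA type) of ribosomal RNA, and the joined exons remain as a separate RNA with little coding capacity. Gas5 was named for its build-up in growth-arrested cells: its RNA begins with a run of pyrimidines of the kind found in messages of the translation machinery (a 5′ TOP start), it is destroyed by nonsense-mediated decay while it is being translated, and in human cells it has been described as a decoy that binds the glucocorticoid receptor. In T cells, growth and growth arrest are tied to activation by antigen and cytokines.

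The start of each host RNA bears on this background, so the 60 bases around it are given for the 6 members with a RefSeq start window, 20 bases before the annotated first base and 40 from it, 5′ to 3′ on the transcribed strand (RefSeq, build GRCm38.p6). Capitals mark the unbroken run of C and T that starts at the first base. In these windows the RefSeq start and the start of the deposited entry are the same base. RefSeq gives Gas5 another start as well, a G that lies 565 nt upstream.
Gas5, chr1:161035146-161035205, plus strand: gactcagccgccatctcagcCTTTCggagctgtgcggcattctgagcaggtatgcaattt
Snhg8, chr3:123508297-123508356, minus strand: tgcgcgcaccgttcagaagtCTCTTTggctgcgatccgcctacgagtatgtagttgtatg
Snhg12, chr4:132308658-132308717, plus strand: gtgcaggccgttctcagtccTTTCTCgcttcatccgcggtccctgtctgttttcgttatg
Snhg1, chr19:8723467-8723526, plus strand: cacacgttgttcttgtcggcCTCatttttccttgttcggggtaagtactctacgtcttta
Snhg3, chr4:132353647-132353706, minus strand: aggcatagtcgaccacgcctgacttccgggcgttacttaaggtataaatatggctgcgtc
Snhg5, chr9:88522858-88522917, minus strand: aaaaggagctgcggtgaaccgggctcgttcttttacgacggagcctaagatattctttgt

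Gas5 and Snhg8 begin with a C followed by at least 4 pyrimidines, in runs of 5 and 6. Snhg12 begins with a run of 6 whose first base is T, Snhg1 with a run of 3, and Snhg3 and Snhg5 with G. Of all 32851 RefSeq start windows of mouse genes, 823 (2.51%) begin with C and a run of at least 5 pyrimidines, and of 11 genes with a window in a list of 5′ TOP genes outside the ribosome, 3 do. A match describes the annotated base only, and transcripts may start a few bases away.

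In GENCODE the member genes have between 3 (Snhg8) and 25 (Gas5) transcripts, with median lengths of 629 nt for Gas5, 602 nt for Snhg1, 437 nt for Snhg3, 832 nt for Snhg5, 559 nt for Snhg6, 528 nt for Snhg8 and 915 nt for Snhg12. The snoRNA loci inside them number 9 in Gas5, 8 in Snhg1, 4 in Snhg12, 2 in Snhg3, 2 in Snhg5, 1 in Snhg6 and 1 in Snhg8. In build mm10 the deposited entries lie at chr1:161035166-161038537 (Gas5, plus strand), chr19:8723487-8726326 (Snhg1, plus), chr4:132351933-132353686 (Snhg3, minus), chr9:88521053-88522897 (Snhg5, minus), chr1:9942025-9944118 (Snhg6, minus), chr3:123507552-123508336 (Snhg8, minus) and chr4:132308678-132311024 (Snhg12, plus). Each entry spans the introns as well as the exons.

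Values are FPKM, fragment counts divided by transcript length and by library depth, and so allow levels of different genes to be compared within a library. Entries shorter than a fragment are an exception. Depth is not stated. It was estimated from the steps between low values and an assumed fragment of 200 nt as about 11600000 and 6300000 fragments in CCR7loCD137hi replicates 1 and 2 and 20600000 and 13000000 in CCR7hiCD137lo replicates 1 and 2. At 50 FPKM, a transcript of 1 kb then rests on about 582 and 316 fragments in CCR7loCD137hi and 1031 and 651 in CCR7hiCD137lo. This is a counting error of 4.15% and 5.63% against 3.11% and 3.92%. The median transcripts of the members are shorter than 1 kb (at most 915 nt, in Snhg12). Shorter or less abundant transcripts rest on fewer fragments. For Snhg8 (528 nt, means of 25.3 FPKM in CCR7loCD137hi and 25.2 FPKM in CCR7hiCD137lo) the error is therefore larger. The sort itself could be read in the libraries: Tnfrsf9 stood at 158.2 and 183.8 FPKM in CCR7loCD137hi and at 0.961 and 6.25 in CCR7hiCD137lo, and Ccr7 at 39.6 and 38.2 FPKM in CCR7loCD137hi and at 93.4 and 118.4 in CCR7hiCD137lo. Summed over 8 pan T cell genes, 1342 and 1572 FPKM were found in CCR7loCD137hi and 1489 and 1555 in CCR7hiCD137lo.

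All 7 members were measured above 0 in every library and passed the filter on low values, a mean of at least 1 FPKM. They were well expressed: the mean of Snhg1 over the 4 libraries lay above that of 95.8% of the 10496 genes tested, that of Gas5 above 90.0%, and that of Snhg8, the lowest, above 71.1%. The median tested gene stood at 11.8 and 12.2 FPKM in CCR7loCD137hi and at 11.7 and 12.4 FPKM in CCR7hiCD137lo. None of the 7 members passed the test between the populations, limma on log2(FPKM + 1) with Benjamini-Hochberg adjustment over all genes and a threshold of 0.05, in which 0.0572% of all genes tested were called. The sort genes did not pass limma's test either (adjusted p = 0.214 for Tnfrsf9 and 0.213 for Ccr7). A gene that did not pass is therefore not shown to be level between the populations. At an unadjusted p under 0.05, 1 member (Snhg12) passed, against 8.13% of all genes. The median log2 fold change of the members, CCR7loCD137hi over CCR7hiCD137lo, was 0.01, with 4 fitted above 0 and 3 below, and the median over all genes was -0.01. Among the gene lists described further on no gene was called by limma either, and the numbers at an unadjusted p under 0.05 were 1 of 4 other noncoding hosts, 0 of 11 box C/D and 1 of 7 box H/ACA particle genes, 0 of 16 decay factors, 0 of 18 5′ TOP genes, 1 of 32 protein-coding hosts, 3 of 21 mTOR and Myc genes, 3 of 10 glucocorticoid receptor genes, 4 of 11 quiescence genes and 0 of 4 other noncoding RNAs. On this scale a fold change understates that of genes with low values, which touches the members little.

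**Figure D1:**
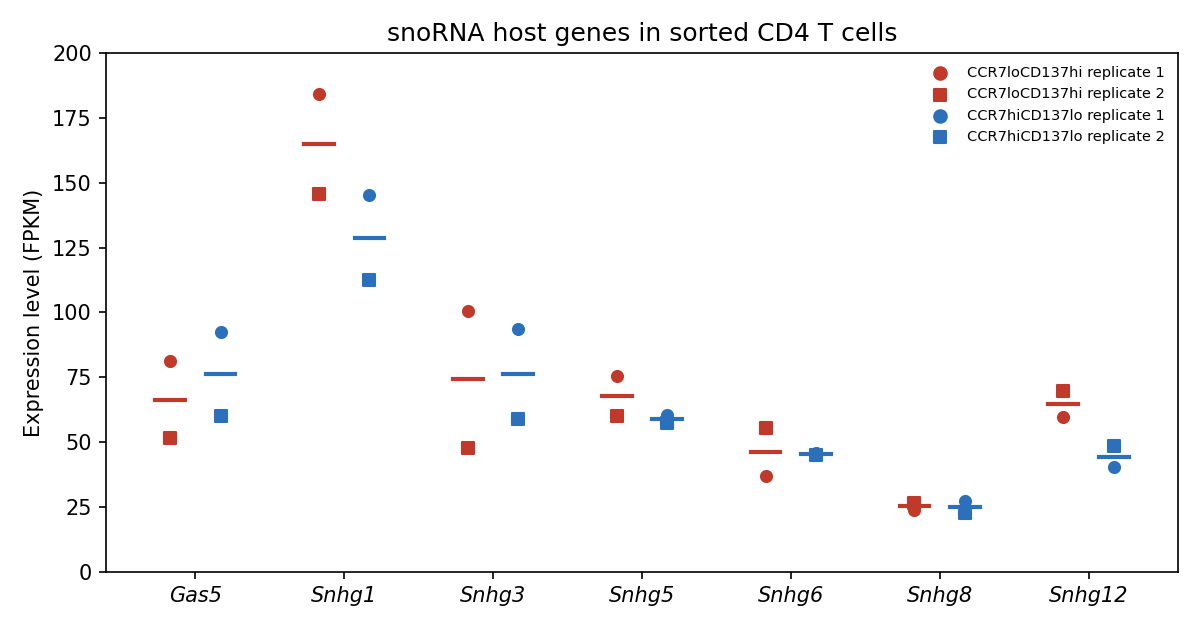
Expression level in FPKM (vertical axis) of the 7 snoRNA host genes. CCR7loCD137hi libraries are red and CCR7hiCD137lo libraries blue, circles are replicate 1, squares replicate 2, and each bar is the mean of 2 libraries. Only Snhg1 and Snhg12 have both red points above both blue ones, Snhg1 by the small gap between 145.7 and 145.4 FPKM.

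Snhg12 had the largest fitted fold change of the 7. It hosts box H/ACA snoRNAs and 1 annotated box C/D snoRNA, and its exons form a long noncoding RNA. Its level was 59.6 and 69.7 FPKM in CCR7loCD137hi replicates 1 and 2, against 40.3 and 48.6 FPKM in CCR7hiCD137lo replicates 1 and 2. Both CCR7loCD137hi libraries stood above both CCR7hiCD137lo libraries, and the ratio was 1.48 between the libraries numbered 1 and 1.43 between those numbered 2. The means were 64.6 ± 7.15 FPKM in CCR7loCD137hi and 44.4 ± 5.86 FPKM in CCR7hiCD137lo (SD, n = 2 each). In limma's test the log2 fold change was 0.53 (SE 0.160, unadjusted p = 0.0242, adjusted p = 0.541), so it did not pass.

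Snhg1, the most abundant member, hosts Snord22, a box C/D snoRNA that in frogs is needed to process ribosomal RNA, among other box C/D snoRNAs. Its level was 184.4 and 145.7 FPKM in CCR7loCD137hi replicates 1 and 2, against 145.4 and 112.3 FPKM in CCR7hiCD137lo replicates 1 and 2. The populations did not overlap, but the lower CCR7loCD137hi library and the higher CCR7hiCD137lo library were nearly level. Between libraries of the same number the log2 difference was 0.34 for number 1 and 0.37 for number 2. Replicate 2 minus replicate 1 was of like size, at -0.34 in CCR7loCD137hi and -0.37 in CCR7hiCD137lo. Limma's log2 fold change was 0.36 (SE 0.197, adjusted p = 0.722). These are the 2 members whose populations did not overlap with CCR7loCD137hi higher, a pattern that 16.6% of all genes tested showed, and no member had the opposite pattern, which 21.5% of all genes showed.

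Gas5 was lower in CCR7loCD137hi than in CCR7hiCD137lo within each replicate number, by amounts smaller than the distance between replicates. Its level was 81.2 and 51.7 FPKM in CCR7loCD137hi replicates 1 and 2, against 92.6 and 60.1 FPKM in CCR7hiCD137lo replicates 1 and 2. The populations overlapped, with both libraries numbered 1 above both numbered 2. The log2 difference between populations was -0.19 for the libraries numbered 1 and -0.21 for those numbered 2, whereas replicate 2 minus replicate 1 was -0.64 in CCR7loCD137hi and -0.62 in CCR7hiCD137lo. Limma gave a log2 fold change of -0.20 (SE 0.315, adjusted p = 0.90) on means of 66.4 ± 20.8 FPKM in CCR7loCD137hi and 76.3 ± 23.0 FPKM in CCR7hiCD137lo (SD, n = 2 each). Its direction turned in limma when 1 library was left out, to 0.12 if CCR7loCD137hi replicate 2 was dropped and to 0.11 if CCR7hiCD137lo replicate 1 was.

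Snhg3 hosts 2 copies of Snora73, a box H/ACA snoRNA also known as U17 that takes part in the processing of ribosomal RNA. Its level was 100.7 and 47.7 FPKM in CCR7loCD137hi replicates 1 and 2, against 93.6 and 58.8 FPKM in CCR7hiCD137lo replicates 1 and 2. The replicates lay farther apart than the populations, with log2 differences of -1.06 in CCR7loCD137hi and -0.66 in CCR7hiCD137lo between replicate 2 and replicate 1. The difference between populations was 0.10 for number 1 and -0.30 for number 2, and limma gave -0.10 (SE 0.430, adjusted p = 0.972), a sign that turned without CCR7loCD137hi replicate 2 (0.44) or without CCR7hiCD137lo replicate 1 (0.23). In GENCODE the transcripts of Rcc1, which encodes the nucleotide exchange factor of Ran, run on the same strand through Snhg3 and share exon sequence with it, so the split of fragments between both genes is uncertain. The deposited Rcc1 entry ends before Snhg3 begins in the genome, and stood at 56.7 and 36.8 FPKM in CCR7loCD137hi and 65.2 and 49.7 FPKM in CCR7hiCD137lo, likewise lower in replicate 2 of each population.

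Snhg5 hosts the box C/D snoRNAs Snord50a and Snord50b. Its level was 75.6 and 60.0 FPKM in CCR7loCD137hi replicates 1 and 2, against 60.5 and 57.3 FPKM in CCR7hiCD137lo replicates 1 and 2. CCR7loCD137hi replicate 1 stood above the other libraries, which lay close together. Limma's log2 fold change was 0.19 (SE 0.158, adjusted p = 0.805).

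Snhg6, the host of Snord87, differed more between the CCR7loCD137hi replicates than between the CCR7hiCD137lo replicates. Its level was 36.9 and 55.5 FPKM in CCR7loCD137hi replicates 1 and 2, on either side of 45.7 and 45.2 FPKM in CCR7hiCD137lo replicates 1 and 2. Limma's log2 fold change was -0.01 (SE 0.223, adjusted p = 0.998), with differences of -0.30 for number 1 and 0.29 for number 2, and its sign turned without CCR7loCD137hi replicate 1 (0.28). In GENCODE 1 exon of Mcmdc2 overlaps an exon of Snhg6 on the opposite strand. The library kit was stranded, but the use of strand in counting is not stated. Whether reads of both genes were told apart is therefore unknown.

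Snhg8, the host of the box H/ACA snoRNA Snora24, was the least abundant member. Its level was 23.9 and 26.7 FPKM in CCR7loCD137hi replicates 1 and 2, against 27.5 and 22.9 FPKM in CCR7hiCD137lo replicates 1 and 2. The populations overlapped fully, and limma's log2 fold change was 0.01 (SE 0.153, adjusted p = 0.990), with either sign when 1 library was left out (-0.12 to 0.14).

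In CCR7loCD137hi the order of mean levels was Snhg1, Snhg3, Snhg5, Gas5, Snhg12, Snhg6 and Snhg8. The ranges of neighbours overlapped from Snhg3 to Snhg12, and Snhg1, Snhg6 and Snhg8 each stood apart from the neighbour above or below. In CCR7hiCD137lo the order was Snhg1, Gas5, Snhg3, Snhg5, Snhg6, Snhg12 and Snhg8, with overlapping neighbours from Gas5 to Snhg5 and between Snhg6 and Snhg12. Summed, the 7 genes held 562 and 457 FPKM in CCR7loCD137hi replicates 1 and 2, against 506 and 405 FPKM in CCR7hiCD137lo replicates 1 and 2. The sums followed the replicate number as well as the population.

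The libraries numbered 2 were below those numbered 1 in both populations for 4 of the 7 members (Gas5, Snhg1, Snhg3 and Snhg5), a pattern that 29.4% of all genes tested showed. Snhg12 was above in both, as were 44.7% of all genes. Within both replicate numbers, 3 members were higher in CCR7loCD137hi (Snhg1, Snhg5 and Snhg12) beside 33.0% of all genes, and 1 was lower (Gas5) beside 35.9%. The median absolute log2 difference of the members between replicates was 0.34 in CCR7loCD137hi and 0.26 in CCR7hiCD137lo, and that between populations was 0.30 for the libraries numbered 1 and 0.29 for those numbered 2. Over all genes the medians were 0.24 in CCR7loCD137hi, 0.19 in CCR7hiCD137lo, 0.18 for number 1 and 0.19 for number 2. What the numbers stand for is not given, and its part in these values was not tested.

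**Figure D2:**
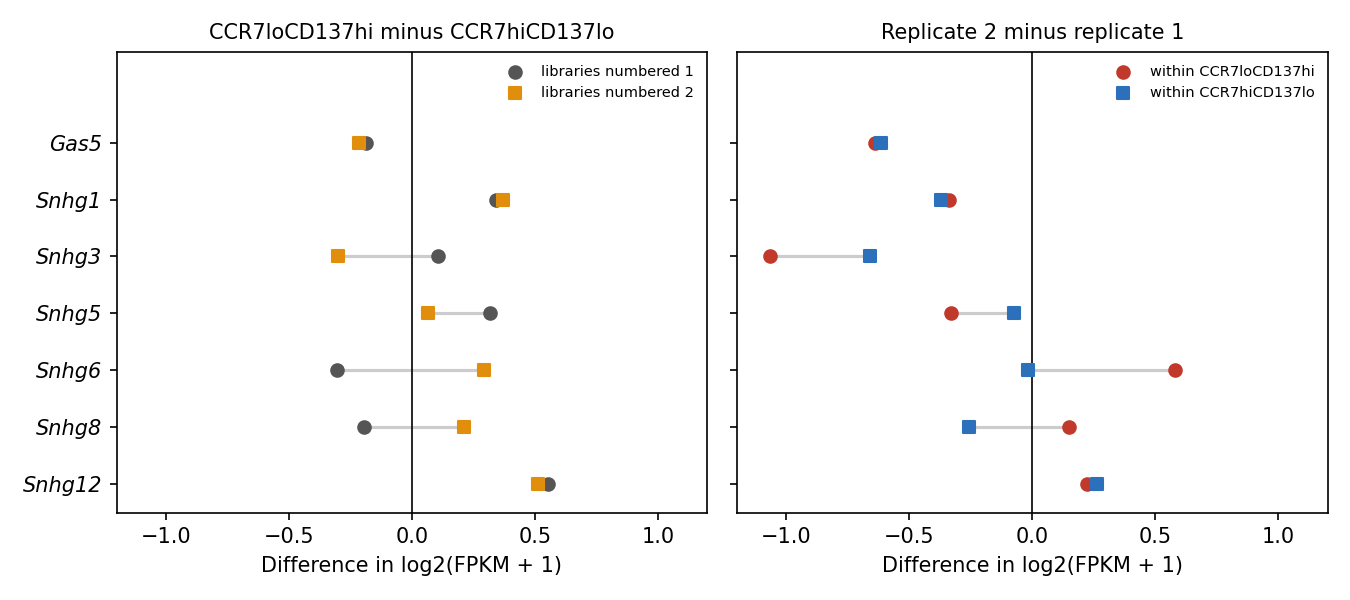
Differences in log2(FPKM + 1) (horizontal axes) for the 7 host genes. The left panel shows CCR7loCD137hi minus CCR7hiCD137lo for the libraries numbered 1 (grey circles) and 2 (orange squares), and the right panel shows replicate 2 minus replicate 1 within CCR7loCD137hi (red circles) and CCR7hiCD137lo (blue squares). Gas5 and Snhg3 lie farther from 0 in the right panel, and Snhg12 lies at 0.55 and 0.51 in the left.

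A ratio of 2 genes within a library does not depend on how libraries were scaled to each other. Snhg12 over Gas5 was 0.734 and 1.35 in CCR7loCD137hi replicates 1 and 2, against 0.435 and 0.808 in CCR7hiCD137lo replicates 1 and 2. The ratio was higher in CCR7loCD137hi within each number, but the populations overlapped, and it was higher in the libraries numbered 2. Snhg1 over Gas5 was 2.27 and 2.82 in CCR7loCD137hi replicates 1 and 2. In CCR7hiCD137lo replicates 1 and 2 it was 1.57 and 1.87, and these did not overlap. The ratios of Snhg12 and Snhg1 over Snhg3 and of Snhg12 over Snhg1 overlapped. Most pairs set a member with a high fitted fold change over one with a low one, so the choice follows the values compared. How often pairs of other genes show no overlap was not counted. No test was made of the ratios, since with 2 libraries a side the smallest two-sided p of an exact permutation test is 0.33. They show unequal levels of the genes and not which gene of a pair differed.

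**Figure D3:**
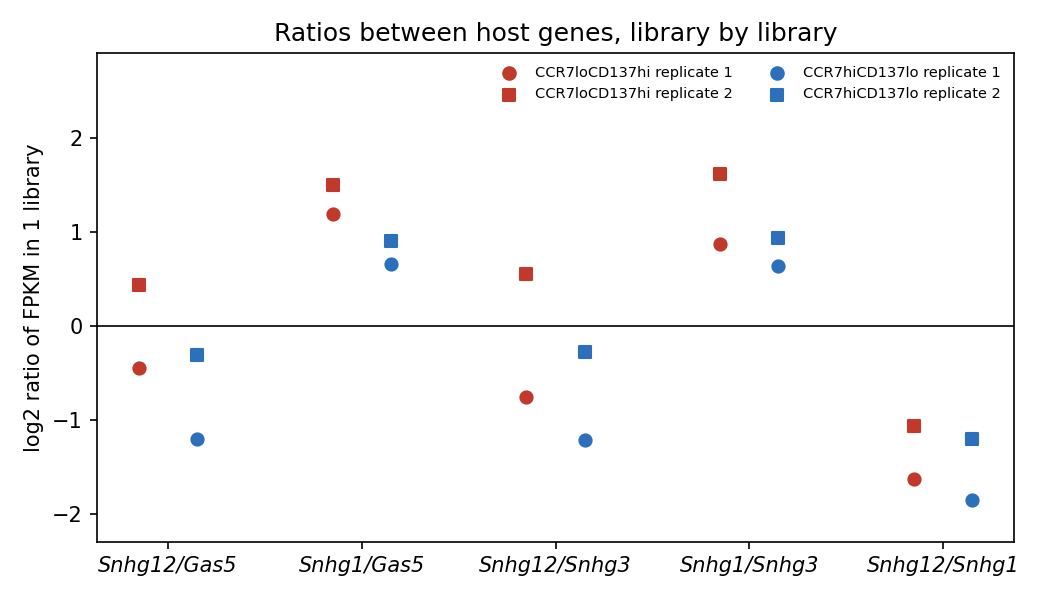
Log2 ratio of the FPKM of 2 host genes in the same library (vertical axis) for 5 pairs of genes. CCR7loCD137hi is red and CCR7hiCD137lo blue, circles are replicate 1 and squares replicate 2. Both red points lie above both blue ones only for Snhg1/Gas5. For Snhg12/Gas5 the libraries of 1 population lie farther apart than those of 1 number.

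By the root mean square difference of their centred log2(FPKM + 1) over the 4 libraries, the member profiles closest to each other were those of Snhg1 and Snhg5 (0.133), Gas5 and Snhg3 (0.159) and Snhg6 and Snhg8 (0.173). Snhg3 and Snhg12 were farthest apart (0.643). By the same measure the genes most like Gas5 among 7773 others with a mean of at least 5 FPKM were Dhodh, an enzyme of pyrimidine synthesis (0.0234), Ctu2, which modifies transfer RNA (0.0279), Dctd, a deoxycytidylate deaminase (0.0313), Pdss1, which makes the side chain of coenzyme Q (0.0364), and Pwp1, a nucleolar WD-repeat protein (0.0372). Of the 7773 genes, 101 lay within 0.1. In Gas5 the replicates lay farther apart (log2 differences of -0.64 and -0.62) than the populations (-0.19 and -0.21). Likeness to its profile therefore follows mostly the replicate number and not the population.

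The deposited tables also list 9 short RNA entries inside the members, of which 3 were above 1 FPKM in all 4 libraries, Snord47 in Gas5, Snord22 in Snhg1 and Snora16a in Snhg12. Their RNA is shown here as the GENCODE transcript on mm10, 5′ to 3′ on the plus strand. Capitals mark the letters TGATGA (box C) in the first 20 bases, CTGA (box D) in the last 15, or ACA in the last 8.
Snord47, chr1:161038082-161038158: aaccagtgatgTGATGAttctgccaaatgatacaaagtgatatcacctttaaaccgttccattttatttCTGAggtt
Snora16a, chr4:132309465-132309600: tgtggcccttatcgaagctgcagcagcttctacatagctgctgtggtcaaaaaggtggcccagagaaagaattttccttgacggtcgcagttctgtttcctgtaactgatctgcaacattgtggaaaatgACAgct
Snord22, chr19:8725866-8725991: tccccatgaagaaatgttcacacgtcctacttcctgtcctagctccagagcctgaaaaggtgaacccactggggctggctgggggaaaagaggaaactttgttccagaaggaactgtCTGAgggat

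Both boxes were found by this search, made on the transcribed strand, in 68 of 98 GENCODE transcripts named Snord (69.4%), and an ACA in 40 of 42 named Snora (95.2%). In Snord22 only the CTGA was found. These short RNAs carry no poly(A) tail and are shorter than the assumed fragment, so a library selected for polyadenylated RNA measures them poorly. Their FPKM are given as a description with no test. Division by so short a length is unreliable, so these FPKM are not on the scale of the hosts. Short RNA entries held 14.9% and 17.3% of all FPKM in CCR7loCD137hi replicates 1 and 2, and 18.2% and 17.2% in CCR7hiCD137lo.

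Snord47, which guides methylation of large-subunit ribosomal RNA, was among the 2 highest values of each table. Its deposited entry covers 65 nt of the 77 nt shown. It stood at 9612 and 15491 FPKM in CCR7loCD137hi replicates 1 and 2, against 19282 and 25988 FPKM in CCR7hiCD137lo replicates 1 and 2. Both CCR7loCD137hi libraries lay below both CCR7hiCD137lo libraries, with ratios of 0.499 for number 1 and 0.596 for number 2. Its host Gas5 was also lower in CCR7loCD137hi within each number, with ratios of 0.877 and 0.860, but the populations overlapped. By replicate number they differed: Gas5 was higher in the libraries numbered 1 of each population, and Snord47 was higher in those numbered 2. In FPKM Snord47 was 118 and 300 times Gas5 in CCR7loCD137hi replicates 1 and 2. In CCR7hiCD137lo replicates 1 and 2 it was 208 and 433 times Gas5. Such multiples are not ratios of RNA amounts.

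Snora16a kept close to its host. It stood at 126.0 and 134.0 FPKM in CCR7loCD137hi replicates 1 and 2, against 72.9 and 89.9 FPKM in CCR7hiCD137lo replicates 1 and 2. As with Snhg12, both CCR7loCD137hi libraries were above both CCR7hiCD137lo libraries. The FPKM of Snora16a was between 1.81 and 2.12 times that of Snhg12 in all 4. The other Snhg12 snoRNA above 0, Snora44, stood at 161 FPKM in CCR7loCD137hi replicate 1 and was listed at 0 in replicate 2, against 31.5 and 49.9 FPKM in CCR7hiCD137lo.

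Snord22 stood at 639 and 262 FPKM in CCR7loCD137hi replicates 1 and 2, against 575 and 357 FPKM in CCR7hiCD137lo replicates 1 and 2. The populations overlapped, and like Snhg1 it was lower in the libraries numbered 2. Snord87, in Snhg6, had 353 FPKM in CCR7loCD137hi replicate 1 and was listed at 0 in the other libraries. Snora24, in Snhg8, had 0.583 FPKM in CCR7loCD137hi replicate 1 and under 0.001 in the other libraries. An exact 0 in these tables can be a failed estimate, and fragments of an unspliced or spliced host that cover a snoRNA cannot be told apart from the snoRNA.

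**Figure D4:**
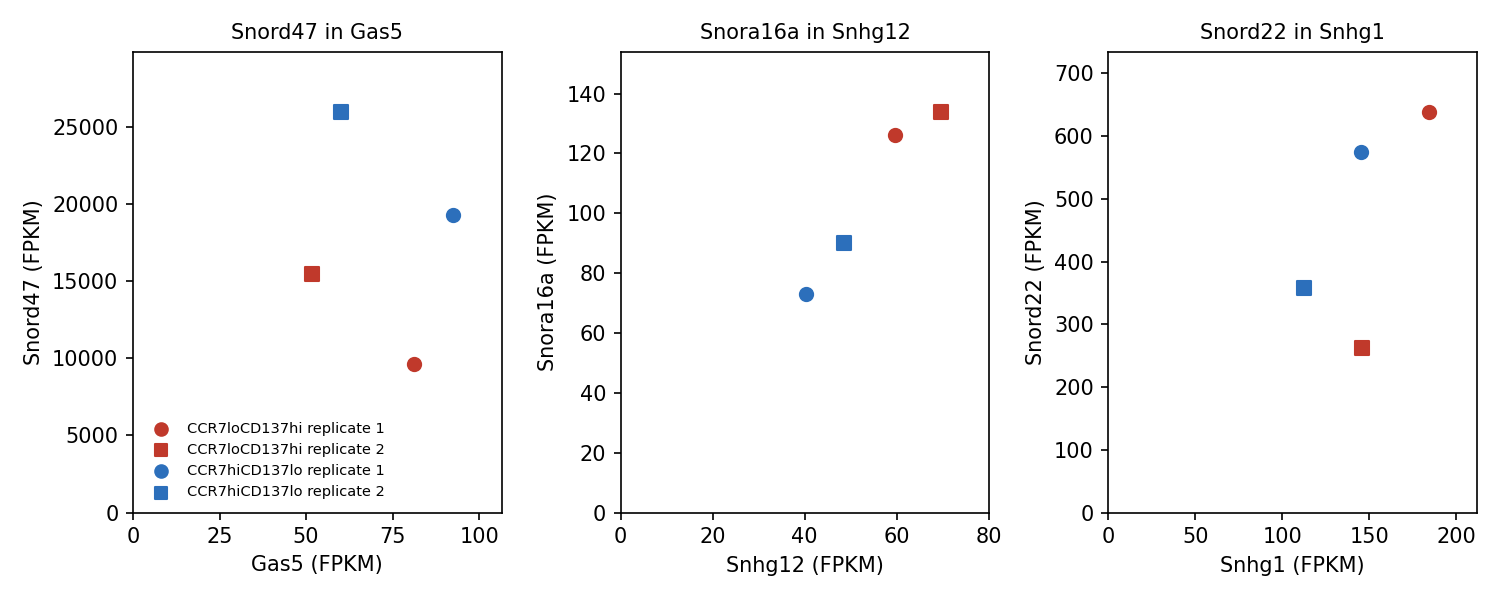
FPKM of a snoRNA entry (vertical axes) against FPKM of its host gene (horizontal axes) in the 4 libraries. CCR7loCD137hi is red and CCR7hiCD137lo blue, circles are replicate 1 and squares replicate 2. Snora16a lies at about the same multiple of Snhg12 in each library (1.81 to 2.12). Snord47 is lower in CCR7loCD137hi within each replicate number, as Gas5 is. It is higher in replicate 2 of each population, where Gas5 is lower.

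Of 17 other noncoding snoRNA hosts sought by symbol, 7 were in the tables and 4 reached a mean of 1 FPKM. None was called, 2 were fitted above 0 and 2 below, and their median log2 fold change was -0.22. 1500012F01Rik, which RefSeq gives as a former name of the box C/D host Zfas1, stood at 101.0 and 135.0 FPKM in CCR7loCD137hi replicates 1 and 2, against 77.1 and 86.3 FPKM in CCR7hiCD137lo replicates 1 and 2, with no overlap (limma log2 fold change 0.51, SE 0.183, adjusted p = 0.613). Like Snhg12 it was higher in CCR7loCD137hi and in the libraries numbered 2. Snhg7 was low, at 2.23 and 3.23 FPKM in CCR7loCD137hi and 5.04 and 3.85 FPKM in CCR7hiCD137lo (limma log2 fold change -0.55, adjusted p = 0.648). Snhg4 stood at 13.9 and 9.0 FPKM in CCR7loCD137hi and at 14.6 and 7.21 FPKM in CCR7hiCD137lo, overlapping. Snhg9 was listed at 0 in all libraries but CCR7hiCD137lo replicate 1, where it had 7.44 FPKM.

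The genes listed for snoRNA particles, which include core proteins and assembly factors, were mostly lower in the libraries numbered 2. Of 11 box C/D particle genes tested, none was called, 4 were fitted above 0 and 7 below, with a median log2 fold change of -0.02. In replicate 2 of both populations 11 of 11 were lower, beside 29.4% of all genes tested. This contrast is between replicate numbers and not between populations, and what the numbers stand for is not given. Nop56, a core protein of the box C/D particle, stood at 184.9 and 123.4 FPKM in CCR7loCD137hi and at 176.4 and 149.8 FPKM in CCR7hiCD137lo. Nop58, its partner, stood at 124.2 and 76.9 FPKM in CCR7loCD137hi and at 132.2 and 91.1 FPKM in CCR7hiCD137lo, and Nhp2l1, which binds the box C and D motif, at 125.9 and 68.7 FPKM in CCR7loCD137hi and at 121.9 and 83.6 FPKM in CCR7hiCD137lo. Of 7 box H/ACA particle genes none was called, 2 were fitted above 0 and 5 below (median -0.12), and 6 were lower in replicate 2 of both populations, among them the core proteins Nhp2 (120.6 and 69.1 FPKM in CCR7loCD137hi, 85.4 and 71.4 FPKM in CCR7hiCD137lo) and Nop10 (83.3 and 52.5 FPKM in CCR7loCD137hi, 82.7 and 60.1 FPKM in CCR7hiCD137lo) and the nucleolar chaperone Nolc1 (70.8 and 32.5 FPKM in CCR7loCD137hi, 67.0 and 45.0 FPKM in CCR7hiCD137lo).

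Protein-coding snoRNA hosts, mostly ribosomal protein genes, had none of 32 called, with 23 fitted above 0, 9 below and a median of 0.12, and 12 of the 32 did not overlap with CCR7loCD137hi higher (16.6% of all genes) and 1 with CCR7loCD137hi lower (21.5% of all genes). Rpl32 stood at 1812 and 2134 FPKM in CCR7loCD137hi and at 1587 and 1812 FPKM in CCR7hiCD137lo, Rps20 at 1982 and 1988 FPKM in CCR7loCD137hi and 1899 and 2091 FPKM in CCR7hiCD137lo, and Rpl4 at 1413 and 1419 FPKM in CCR7loCD137hi and 1252 and 1313 FPKM in CCR7hiCD137lo. Messages with a 5′ TOP start outside the ribosome had none of 18 called, 15 fitted above 0, 3 below and a median of 0.17. Over all genes tested, 47.9% were fitted above 0. Unlike the particle genes, 18 of the 32 protein-coding hosts were higher in replicate 2 of both populations and 7 lower. Of the 18 5′ TOP genes, 10 were higher and 5 lower, beside 44.7% and 29.4% of all genes tested. The list shares genes with that of the protein-coding hosts, so their counts are not separate observations. Eef1a1, elongation factor 1 alpha, stood at 4169 and 4814 FPKM in CCR7loCD137hi and 4071 and 4402 FPKM in CCR7hiCD137lo, and Tpt1, the translationally controlled tumor protein, at 2395 and 2695 FPKM in CCR7loCD137hi and 2491 and 2727 FPKM in CCR7hiCD137lo.

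Of 16 nonsense-mediated decay factors none was called, with 4 fitted above 0, 12 below and a median of -0.09. Magoh, of the exon junction complex, stood at 185.9 and 124.9 FPKM in CCR7loCD137hi and at 201.4 and 161.7 FPKM in CCR7hiCD137lo. Rnps1, which binds that complex, stood at 94.3 and 85.1 FPKM in CCR7loCD137hi and at 90.4 and 90.6 FPKM in CCR7hiCD137lo, and Eif4a3, its RNA helicase, at 78.2 and 64.0 FPKM in CCR7loCD137hi and at 79.7 and 71.4 FPKM in CCR7hiCD137lo.

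Growth control genes of mTOR and Myc had none of 21 called, 13 fitted above 0, 8 below and a median of 0.06. Myc stood at 116.5 and 157.7 FPKM in CCR7loCD137hi and at 81.5 and 121.6 FPKM in CCR7hiCD137lo, and Ddit4, an inhibitor of mTORC1, at 65.9 and 164.0 FPKM in CCR7loCD137hi and at 35.4 and 84.7 FPKM in CCR7hiCD137lo. Max, the partner of Myc, had no overlap, at 76.2 and 50.03 FPKM in CCR7loCD137hi and at 99.6 and 83.7 FPKM in CCR7hiCD137lo (limma log2 fold change -0.56, adjusted p = 0.656).

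The glucocorticoid receptor and its targets had none of 10 called, 7 fitted above 0, 3 below and a median of 0.36. Nfkbia, the NF-kB inhibitor and a target of several other pathways, stood at 87.85 and 54.5 FPKM in CCR7loCD137hi and at 24.2 and 24.9 FPKM in CCR7hiCD137lo (limma log2 fold change 1.46, adjusted p = 0.346). The receptor chaperones Hsp90aa1 and Fkbp4 stood at 331.8 and 249.3 FPKM and at 95.1 and 74.3 FPKM in CCR7loCD137hi, against 250.8 and 242.3 FPKM and 90.7 and 80.9 FPKM in CCR7hiCD137lo. T cell quiescence genes had none of 11 called, 6 fitted above 0, 5 below and a median of 0.12. Among them Slfn2, which keeps T cells quiescent, had no overlap, at 53.2 and 49.99 FPKM in CCR7loCD137hi and at 82.6 and 66.7 FPKM in CCR7hiCD137lo (limma adjusted p = 0.537), whereas the survival receptor gene Il7r, at 35.4 and 76.6 FPKM in CCR7loCD137hi and 18.3 and 50.9 FPKM in CCR7hiCD137lo, and the antiproliferative gene Btg1, at 48.6 and 40.7 FPKM in CCR7loCD137hi and 39.5 and 42.2 FPKM in CCR7hiCD137lo, overlapped. Of other nuclear noncoding RNAs none of 4 was called, and 4 were fitted above 0 (median 0.35). Neat1, the scaffold of paraspeckles, stood at 43.0 and 85.3 FPKM in CCR7loCD137hi and at 28.1 and 57.8 FPKM in CCR7hiCD137lo, Malat1, of nuclear speckles, at 12.2 and 26.4 FPKM in CCR7loCD137hi and 19.7 and 12.6 FPKM in CCR7hiCD137lo, and Rmrp, the RNA of RNase MRP, at 5.53 and 2.05 FPKM in CCR7loCD137hi and 3.76 and 2.98 FPKM in CCR7hiCD137lo.

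Summed markers of each other cell type were higher in CCR7loCD137hi. Summed over 6 genes of CD8 T and NK cells, 49.5 and 38.9 FPKM were found in CCR7loCD137hi and 12.7 and 23.7 in CCR7hiCD137lo, most of it Eomes. B cell markers (7 genes) summed to 5.0 and 0.529 FPKM in CCR7loCD137hi and 0.117 and 0.261 in CCR7hiCD137lo. Myeloid and dendritic markers (8 of 9 measured) summed to 63.7 and 63.4 FPKM in CCR7loCD137hi and 45.6 and 44.7 in CCR7hiCD137lo, nearly all Cst3, with Csf1r and Flt3 at 0. Erythroid and platelet markers (6 genes) summed to 0.925 and 1.56 FPKM in CCR7loCD137hi and 0.112 and 0.133 in CCR7hiCD137lo, with Hbb-b1, Pf4 and Ppbp at 0. Their part in the values of Snhg12 and Snhg1 was not tested, and in sorted bulk samples fewer cells of a type and less RNA per cell cannot be told apart.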

How the data were processed

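RNA of 4 libraries was analysed from gene tables in which the FPKM values were made by the authors and deposited, 1 table per library. Per the labels' protocols, RNA came from TRIzol extraction and a TruSeq Stranded mRNA kit. The submitters' processing notes name the build mm10 and the tools TopHat 1.3.2, Bowtie 0.12.8 and Cufflinks 2.0.2. Annotation, scaling between libraries and use of strand are not given in those sources.

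Where a symbol repeated, the entry with the highest mean was used, and no member repeats. The 10496 genes with a mean of at least 1 FPKM entered limma 3.58.1 (R 4.3.3) as log2(FPKM + 1), with a variance trend, two-sided, on 2 residual degrees of freedom, with Benjamini-Hochberg adjustment over all of them. Tables and plots were made with Python 3.11.15, pandas 2.3.3, numpy 2.4.6 and matplotlib 3.10.9. The fit was tested on simulated data. Depth was estimated from values under 0.3 FPKM: 62.3% and 61.2% of ratios in CCR7loCD137hi replicates 1 and 2 and 61.3% in CCR7hiCD137lo replicate 2, each to CCR7hiCD137lo replicate 1, fell within 0.002 in natural log of whole-read ratios. The floor of 3 fragments on 1 kb is 0.258 and 0.475 FPKM in CCR7loCD137hi and 0.145 and 0.230 in CCR7hiCD137lo. Such floors and errors cover counting only.

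Named genes were the 7 members, other noncoding hosts with a mean of at least 1 FPKM, the 3 most abundant genes of each other list (no list had called genes), short RNA entries inside a member, the sort genes and the 5 genes most like Gas5. For 1 gene so chosen, values are not reported here. Rcc1, Eomes, Cst3 and the markers at 0 were named after their values were seen. The members and lists were chosen with earlier results of these data known. Alternatives were another pseudocount (0.1), no filter, a filter at 5 FPKM, 3 scalings, no trend, summed entries, a replicate block, and each library left out.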

Additional observations from a re-analysis of the deposited data

How the results depend on the processing

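No member was called in any of the 13 alternatives. The numbers of the labels pair the libraries only by number. The differences between replicate 2 and replicate 1 in the 2 populations had a Pearson's r of 0.21 over 10496 genes (genes are no independent replicates). With the replicate block 42 genes were called (36 higher, 6 lower), against 6 (5 higher, 1 lower) without it, and the lowest adjusted p of a member under the block was 0.0938 (Snhg12). Over all genes, no filter gave 1 call (1 higher, 0 lower), quantile normalization 2 (2 higher, 0 lower), no variance trend 2 (2 higher, 0 lower), and a pseudocount of 0.1 gave 2 lower calls. With 1 library left out, where the lone library is assumed to vary like the others, the calls ran from 12 to 30, with 7 to 26 higher and 3 to 10 lower. For single genes, fold changes near 0 took the other sign with 1 library left out, a fit that holds the replicate numbers unequally. The log2 ranges over the left-out libraries were Gas5 -0.52 to 0.12, Snhg3 -0.63 to 0.44, Snhg6 -0.30 to 0.28, Snhg8 -0.12 to 0.14, Snhg4 -0.35 to 0.57, Nop56 -0.40 to 0.18, Nop58 -0.51 to 0.18, Nhp2l1 -0.55 to 0.32, Nhp2 -0.17 to 0.62, Nop10 -0.42 to 0.24, Nolc1 -0.74 to 0.36, Magoh -0.53 to 0.042, Rnps1 -0.087 to 0.058, Eif4a3 -0.23 to 0.051, Eef1a1 -0.022 to 0.19, Tpt1 -0.12 to 0.048, Rps20 -0.075 to 0.064, Fkbp4 -0.20 to 0.15, Btg1 -0.0045 to 0.25, Malat1 -0.34 to 0.71 and Rmrp -0.51 to 0.59. Apart from these, Snhg8 stood at -0.047 and Rmrp at -0.0098 with FPKM rescaled without short RNA genes, Rps20 at 0.00014 with upper quartile scaling and Rmrp at -0.055 with quantile normalization. Snhg1, Snhg5 and Snhg12 kept their direction in all 13 alternatives, but with 1 library left out their log2 fold changes ran from 0.17 to 0.54 for Snhg1, 0.026 to 0.36 for Snhg5 and 0.40 to 0.66 for Snhg12. Tnfrsf9, short of the threshold in the full fit (adjusted p = 0.214), passed limma's test without CCR7hiCD137lo replicate 1 (adjusted p = 0.0136) or replicate 2 (0.00629). The causes were not tested. Depth is only estimated, the shallowest library is CCR7loCD137hi replicate 2, and 2 libraries a side on 2 residual degrees of freedom limit every test.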
